A study of Mus musculus with 4 samples.

Results

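The matrix metalloproteinases (MMPs), the ADAMTS proteases and the tissue inhibitors of metalloproteinases (TIMPs) were followed in astrocyte-enriched cultures (AECs) under oxygen–glucose deprivation (OGD). The genes were taken by name from the arrays, as every symbol made of *Mmp*, *Adamts* or *Timp* and a number, with the letters of *Mmp1a* and *Mmp1b* allowed. This gave 46 of the 29676 gene names on the arrays, namely 23 *Mmp*, 19 *Adamts* and 4 *Timp* genes, read by 67 of 39429 probes.

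The AECs were glial cultures from the cortex of newborn ICR mice, depleted of microglia with PLX3397, which blocks the receptor of colony-stimulating factor-1. The groups compared were untreated AECs (n = 2) and AECs kept for 15 h in glucose-free medium at low oxygen (n = 2), and PLX3397 depletion was shared by both. According to the methods, the wells came from separately prepared cultures of different pups. RNA was labeled with Cy3 and each sample was hybridized to its own single-color array, with all 4 arrays on 1 slide and in 1 scan.

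MMPs are zinc enzymes that cut collagens, gelatin, laminins and many other proteins outside the cell. Most are made as inactive precursors and are switched on by other proteases, and several are known in the brain for opening the basal lamina of vessels after ischemia. ADAMTS proteases are secreted relatives of the MMPs with thrombospondin repeats, and some of them cut the chondroitin sulfate proteoglycans that astrocytes lay down around neurons. TIMPs bind the active site of these enzymes and block it.

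The arrays after OGD were dimmer. Per array, 73.7% and 73.0% of the non-control spots of untreated AECs were marked well above background, against 66.2% and 64.5% after OGD, and the 75th percentile of the signal was lower after OGD by 1.37 on the log2 scale. Each log2 signal was therefore set against the 75th percentile of its array, as in the methods of the study. Probes for RNA spiked in at fixed amounts had nearly the same signal in both groups, with a mean difference of −0.0849 (SD 0.357 over 9 probes), so that every log2 fold change was 1.29 lower on the spike-in scale. Relative to the 75th percentile the median log2 fold change of all genes tested was 0.16, and on the spike-in scale it was −1.13. According to the methods, the same amount of total RNA was labeled for each sample, so neither scale measures RNA per cell or per culture. In such bulk cultures, fewer cells of a type and less RNA of a gene per cell of that type cannot be told apart. A difference is called higher or lower below where its adjusted p-value from limma was under 0.05, and the spike-in scale is given beside the 75th percentile where the direction of a gene or list differed.

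AECs were checked by their markers. All 12 astrocyte markers, such as *Gfap*, *Aqp4* and *Aldh1l1*, were detected well above background on every array. Their summed signal was 399058 and 361795 in untreated AECs against 228296 and 206225 after OGD. Relative to the 75th percentile 7 of them were higher and 2 lower, with a median log2 fold change of 0.67, and on the spike-in scale 9 were lower and none was higher, with a median of −0.62. Of 11 microglial markers 10 were tested (3 higher and 2 lower, or 8 lower on the spike-in scale), and their summed signal was 3947 and 3338 in untreated AECs against 1737 and 1337 after OGD. Most of this sum was *Itgam*, with 3328 and 2726 against 1376 and 1015, which was not called at 0.02 (−1.26 on the spike-in scale). *C1qa* among the microglial markers was not tested. Markers of meningeal fibroblasts were present too, with 6 of 7 tested, 1 higher and 1 lower (5 lower on the spike-in scale), and a summed signal of 42411 and 33581 against 9832 and 10007. The first OGD sum leaves out *Col1a1*, whose spot was marked as an outlier there. The 5 pericyte markers, of which 3 were tested (1 higher and 1 lower, or 3 lower on the spike-in scale), had summed signals of 2471 and 2651 against 280.2 and 239.4. Most of this sum was *Pdgfrb*, with 2192 and 2421 against 177 and 156, which was lower by a log2 fold change of −2.42, whereas *Rgs5* was higher at 0.38 (−0.91 on the spike-in scale). Of 7 oligodendrocyte markers, all tested, 3 were higher and none lower (6 lower on the spike-in scale), and of the 3 markers of NG2 glia *Cspg4* was higher at 0.88 and *Pdgfra* lower at −1.27, while all 3 were lower on the spike-in scale. Of 5 endothelial markers 3 were tested (1 lower), and of 6 neuronal markers 5 (2 higher, 2 lower), with 3 and 4 lower on the spike-in scale. Over all genes tested, 37.1% were higher and 27.8% lower relative to the 75th percentile, and 83.3% were lower on the spike-in scale. The part of these cell types in the results below was not tested.

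Of the 46 genes, 32 had a probe bright enough to test, and 24 of these were well above background on all 4 arrays. A gene with several probes is represented by its brightest tested probe. With limma, 12 of the 32 genes were higher and 11 were lower after OGD, and the other 9 were not called. The 12 include *Adamts17*, whose probe was not well above background after OGD and gives no measured direction. Over all 21061 genes tested, 37.1% were called higher and 27.8% lower, so that 37.5% and 34.4% of the family members lay near the background. Among the 24 genes well above background on all 4 arrays 11 were higher and 8 lower, beside 41.0% and 26.9% of all such genes. The median log2 fold change was −0.15 over the 32 genes, of which 8 had passed only through their signal in untreated AECs, and 0.14 over the 24 genes. Past a fold of 2, 5 members were higher (*Adamts17* among them) and 6 lower, against 12.7% and 15.0% of all genes. Past a fold of 10, the fit had 1 higher (*Mmp13*) and 1 lower (*Adamts15*), against 0.707% and 0.56%. Neither is firm at that limit, since *Mmp13* was 8.45-fold higher without the first OGD array. Set against the lowest signal marked well above background, *Adamts15* was 8.59-fold lower. On the spike-in scale 2 members (*Mmp10* and *Mmp13*) were higher and 27 lower, where 3.84% of all genes were higher and 83.3% lower. Without the second untreated array, 7 members were higher and 6 lower.

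The calls were also counted for each family. To compare like with like, this was done over the genes well above background on all 4 arrays, of which 41.0% were higher and 26.9% lower over the whole array. Among 11 *Mmp* genes 5 were higher and 2 lower, and of the 4 *Timp* genes 3 were higher and none was lower. Among 9 *Adamts* genes 3 were higher and 6 lower, but *Adamts3*, *Adamts5*, *Adamts9* and *Adamts14* were not called by the mean over their probes. Further *Adamts* calls were lost without an untreated array, as given with each gene. On the spike-in scale 9 of these *Mmp*, 7 of these *Adamts* and all 4 *Timp* genes were lower, as were 15209 of all 18340 such genes. With all tested members, 5 of 12 *Mmp* genes were higher and 2 lower, and 4 of 16 *Adamts* genes were higher and 9 lower. Over all genes tested the shares were 37.1% and 27.8%. The 9 include *Adamts10*, *Adamts15* and *Adamts16*, which passed the filter only through untreated AECs, and the 4 include *Adamts17*, which had no measured direction. No test of the difference between the families was made.

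**Figure D1:**
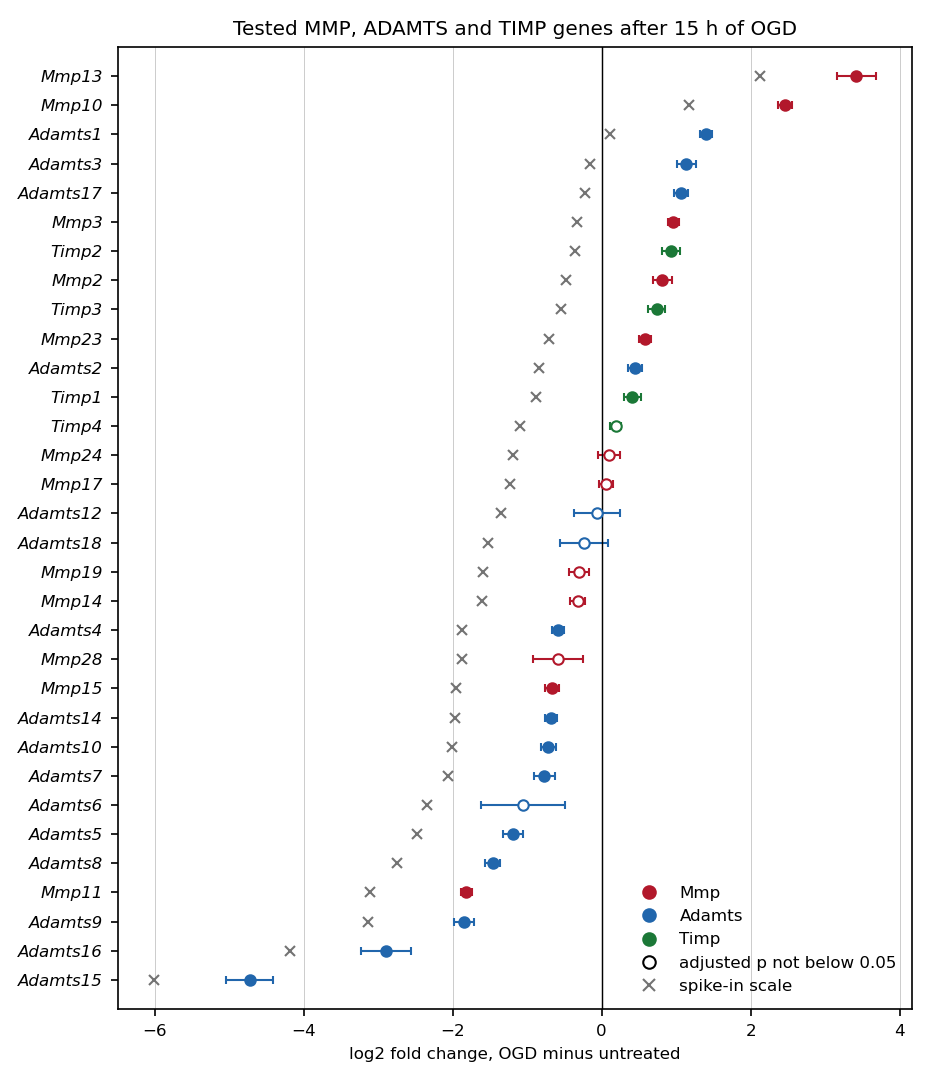
Log2 fold change (OGD minus untreated, x axis) of the 32 tested genes, relative to the 75th percentile of each array, with bars for the SE from limma (n = 2 arrays per group). Filled points had an adjusted p under 0.05, open points did not, and gray crosses give the same gene on the spike-in scale, where *Mmp13* and *Mmp10* alone were called higher. For *Adamts15*, *Adamts16*, *Adamts10*, *Adamts6*, *Adamts12*, *Adamts17* and *Mmp28* the probe was not well above background on either OGD array, so that their place in the order is not measured.

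*Mmp13* and *Mmp10* rose after OGD on both scales. *Mmp13* encodes collagenase-3, which cuts fibrillar collagens. Its processed signal, an intensity after background subtraction, was 16.7 and 15.5 in untreated AECs and 90.1 and 49.1 after OGD. Both OGD arrays were above both untreated arrays already before scaling. The log2 fold change was 3.42 ± 0.26 (SE), a 10.7-fold increase (adjusted p = 0.00174, limma), and 2.13 on the spike-in scale. *Mmp10* encodes stromelysin-2, a protease of broad specificity that also activates other MMP precursors. Its signal was 28.6 and 29.6 in untreated AECs and 62.8 and 61.3 after OGD. The arrays of each group lay close together and the groups did not overlap. The log2 fold change was 2.47 ± 0.09 (adjusted p = 0.000767, limma), or 5.53-fold, and 1.18 on the spike-in scale. Over 17 other settings *Mmp13* stayed between 2.13 and 3.76 and *Mmp10* between 1.18 and 2.55, with adjusted p no higher than 0.0316 and 0.0197.

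*Mmp3*, which encodes stromelysin-1, lies between these genes and rose by 0.96 ± 0.08 on the log2 scale (adjusted p = 0.00196, limma) relative to the 75th percentile but was lower by −0.32 on the spike-in scale. Its signal was 1259 and 1296 in untreated AECs and 1002 and 924 after OGD, so that before scaling both OGD arrays were below the untreated ones.

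The probes of these 3 genes lie within a cluster of *Mmp* genes on chromosome 9. In mm9, the build of the probe positions, the *Mmp13* probe spans 7282762 to 7282821, the *Mmp3* probe 7455751 to 7455810 and the *Mmp10* probe 7510011 to 7510070. The cluster on the array held 10 genes over 414.9 kb, in the order *Mmp13*, *Mmp12*, *Mmp1b*, *Mmp3*, *Mmp1a*, *Mmp10*, *Mmp8*, *Mmp27*, *Mmp20* and *Mmp7*. The other 7 genes were not well above background on any array. Their highest signal on any array was 8.66, for *Mmp12*, the macrophage elastase, where the lowest signal marked well above background ranged from 6.33 to 7.50 between arrays. Interstitial collagenases (*Mmp1a*, *Mmp1b*), the neutrophil collagenase *Mmp8*, the tooth enamel protease *Mmp20* and matrilysin (*Mmp7*) were among them. *Mmp1a* and *Mmp1b* are close copies of each other, so their probes may not tell them apart.

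**Figure D2:**
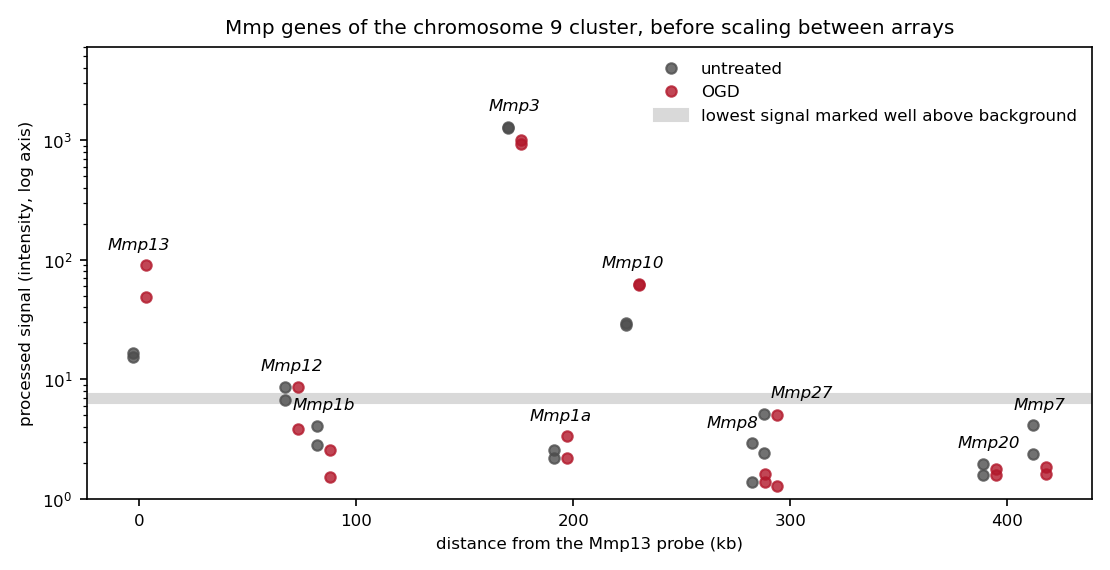
Processed signal (intensity, log axis, not scaled between arrays) of the 10 *Mmp* genes of the chromosome 9 cluster against the distance of their probes from the *Mmp13* probe (kb). Each point is 1 array, drawn slightly to the left (untreated) or right (OGD) of its place, each gene is shown by its brightest probe, and the gray band spans the lowest signals marked well above background (6.33 to 7.50). *Mmp13* and *Mmp10* are above their untreated values after OGD, *Mmp3* is below, and the other genes lie near or under the band.

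The promoters of the cluster are shown because 7 of its 10 genes shared a binding motif of AP-1, the Fos and Jun dimer long known to drive MMP transcription. The sequences were those of RefSeq for GRCm38.p6, from 250 bases before to 50 bases after the start of each gene, and 32 of the 46 genes were matched. The motif was searched as TGAGTCA and its reverse complement TGACTCA. It was present in the promoters of 5.95% of all 27025 genes (5.20% of 32851 promoters) and of 7 of the 32 matched genes, and all 7 lay in the cluster. For *Mmp12* and *Mmp7*, 1 of the 2 promoters held it. It began 35 bases before the start of *Mmp13*, 46 before *Mmp3*, 63 before *Mmp10*, 44 before *Mmp12*, 73 before *Mmp1a*, 93 before *Mmp1b* and 63 before *Mmp7*. The stretches around it are given 5′ to 3′ on the strand of the gene, with the motif in capitals:
Mmp13: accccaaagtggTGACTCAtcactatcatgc
Mmp3: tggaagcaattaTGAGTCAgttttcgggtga
Mmp10: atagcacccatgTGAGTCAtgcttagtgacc
Mmp12: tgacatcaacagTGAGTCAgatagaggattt
Mmp1a: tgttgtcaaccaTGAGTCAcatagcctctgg
Mmp1b: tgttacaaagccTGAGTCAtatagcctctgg
Mmp7: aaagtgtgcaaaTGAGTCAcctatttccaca
Of these 7 genes, *Mmp13*, *Mmp3* and *Mmp10* were measured and the other 4 were not well above background on any array. The whole windows are given for *Mmp13* and *Mmp10*, the members called higher on both scales. They lie at chr9:7272264-7272563 and chr9:7502092-7502391 of GRCm38.p6, both on the plus strand:
Mmp13: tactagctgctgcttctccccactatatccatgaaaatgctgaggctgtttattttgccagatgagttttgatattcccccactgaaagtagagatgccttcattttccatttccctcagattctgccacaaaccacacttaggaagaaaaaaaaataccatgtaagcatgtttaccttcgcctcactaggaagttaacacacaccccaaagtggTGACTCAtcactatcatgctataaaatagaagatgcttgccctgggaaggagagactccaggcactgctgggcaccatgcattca
Mmp10: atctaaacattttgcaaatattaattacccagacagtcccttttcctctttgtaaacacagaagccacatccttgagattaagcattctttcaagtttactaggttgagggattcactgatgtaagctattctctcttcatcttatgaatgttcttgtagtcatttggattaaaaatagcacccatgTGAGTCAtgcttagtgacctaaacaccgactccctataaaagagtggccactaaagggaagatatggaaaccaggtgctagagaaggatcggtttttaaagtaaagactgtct
The core of the hypoxia response element, ACGTG or its reverse complement CACGT, was in neither of these windows. It was present in the promoters of 21.8% of all genes and of 8 of the 32 matched genes (*Adamts3*, *Adamts17*, *Adamts18*, *Adamts20*, *Mmp7*, *Mmp14*, *Mmp27* and *Timp1*). A match is a description of the letters, and binding was not measured.

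The third stromelysin, *Mmp11*, was lower on both scales and lies elsewhere, on chromosome 10. It encodes a protease that is activated inside the cell by furin. Its signal was 3716 and 3803 in untreated AECs and 443 and 381 after OGD. The groups were far apart, and *Mmp11* fell by 1.82 ± 0.07 on the log2 scale (adjusted p = 0.000777, limma), or 3.53-fold. The log2 fold change was −3.11 on the spike-in scale. Its other probe, 185 bp away, gave −1.81.

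The gelatinases cut denatured and basement membrane collagen. *Mmp2* (gelatinase A) was higher by 0.81 ± 0.13 on the log2 scale (adjusted p = 0.00838, limma) and lower by −0.48 on the spike-in scale. The call was lost without either untreated array (adjusted p = 0.0609 without the first and 0.0555 without the second). *Mmp9* (gelatinase B) was not detected, with its highest signal at 2.13. *Mmp8*, which is named above, *Mmp21* and *Mmp25* also stayed near the floor of the arrays.

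Of the 7 membrane-bound MMPs 5 were tested. Relative to the 75th percentile 1 was higher and 1 lower, where 37.1% and 27.8% of all genes were so. On the spike-in scale all 5 were lower, as were 83.3% of all genes. *Mmp14*, which activates the *Mmp2* precursor at the cell surface, had a signal of 1073 and 1119 in untreated AECs and 387 and 296 after OGD. Its log2 fold change of −0.32 ± 0.10 did not pass (adjusted p = 0.0566, limma), while on the spike-in scale it was lower by −1.61. *Mmp15* was lower at −0.67, and *Mmp23* was higher at 0.58 but lower by −0.71 on the spike-in scale. Both calls were lost without either untreated array (adjusted p between 0.0597 and 0.0623). *Mmp17* (0.06) and *Mmp24* (0.10) were not called. *Mmp16* was well above background on 1 untreated array only, at 11.97, and was not tested. Among the other secreted MMPs, *Mmp19* (−0.30) and *Mmp28* (−0.59) were not called.

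**Figure D3:**
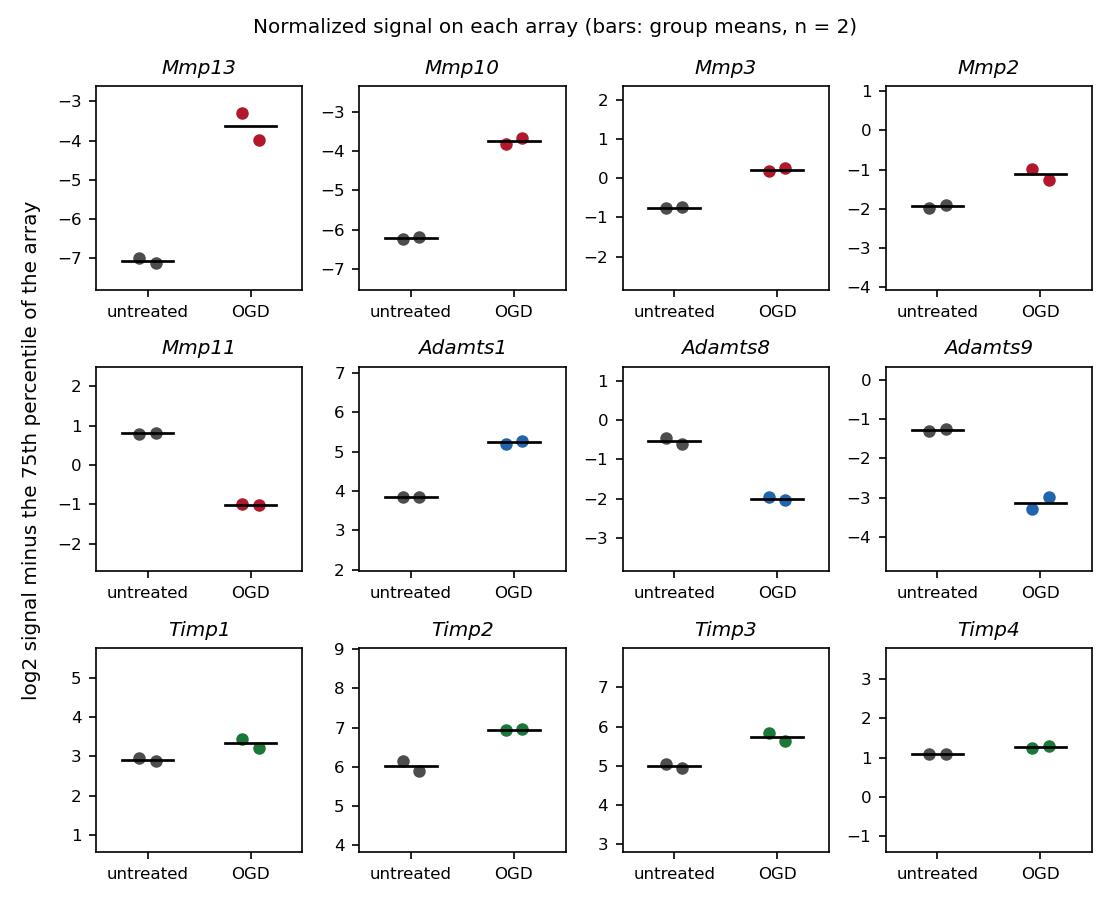
Normalized log2 signal (minus the 75th percentile of the array) on each array for 12 genes, in untreated AECs and after OGD, with bars for the group means (n = 2). Each y axis spans the same range of log2 units, but its position differs between genes, since levels of different probes cannot be compared. *Mmp13* and *Mmp10* lie higher and *Mmp11* and *Adamts8* lower after OGD on both scales, as does *Adamts9* at the probe plotted but not at its other probe (1.41), whereas on the spike-in scale *Mmp2*, *Mmp3* and the 4 *Timp* genes were lower after OGD.

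The next group cuts proteoglycans. Of its 7 genes, which are *Adamts1*, *Adamts4*, *Adamts5*, *Adamts8*, *Adamts9*, *Adamts15* and *Adamts20*, 6 were tested, and by their brightest probes 1 was higher and 5 were lower, where 37.1% and 27.8% of all genes were so. Limits on 4 of the lower calls, those of *Adamts4*, *Adamts5*, *Adamts9* and *Adamts15*, are given with each gene. *Adamts1* was the gene called higher. Its signal was 30467 and 30883 in untreated AECs and 32512 and 29959 after OGD. The signals of the groups overlapped before scaling. *Adamts1* rose by 1.40 ± 0.08 on the log2 scale (adjusted p = 0.00109, limma), or 2.63-fold, relative to the 75th percentile, and on the spike-in scale it was at 0.11 and was not called.

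*Adamts15* encodes another protease of this group. Its signal was 178 and 123 in untreated AECs and 2.90 and 1.61 after OGD, where the probe was not well above background on either array. The fitted log2 fold change was −4.73 ± 0.32 (adjusted p = 0.00144, limma). Set against the lowest signal marked well above background, *Adamts15* was 8.59-fold lower after OGD. That is not a strict bound, since an *Adamts17* probe at 10.4 on the first OGD array was not marked. With normexp background correction, which adds an offset to every spot, its log2 fold change was −0.52.

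*Adamts8*, whose probe lies 63.4 kb from that of *Adamts15* on chromosome 9, was lower as well. Its signal was 1548 and 1409 in untreated AECs and 226 and 189 after OGD. These values did not overlap, and *Adamts8* fell by 1.46 ± 0.10 on the log2 scale (adjusted p = 0.00139, limma). *Adamts4*, an aggrecanase, was lower by −0.59 (adjusted p = 0.00702, limma), and its adjusted p was 0.0630 and 0.0648 without the first and the second untreated array. *Adamts20* was not detected.

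*Adamts9* and *Adamts5* (another aggrecanase) were called lower by their brightest probes, but their probes disagreed. The brightest *Adamts9* probe, near the gene end, had a signal of 859 and 903 in untreated AECs and 90.5 and 98.7 after OGD. It fell by 1.85 ± 0.14 on the log2 scale (adjusted p = 0.00166, limma). The other probe, 20205 bp nearer to the gene start, had 256 and 255 in untreated AECs and 268 and 255 after OGD. Its signal was thus alike on all 4 arrays before scaling, and its log2 fold change was 1.41 relative to the 75th percentile and 0.12 on the spike-in scale. *Adamts5* is read by 3 probes. The brightest had 538 and 440 in untreated AECs and 86.6 and 77.7 after OGD. It fell by 1.20 ± 0.14 (adjusted p = 0.00379, limma), and a neighboring probe gave −0.67. The third, 41277 bp upstream, had 126 and 143 against 82.9 and 120, with a log2 fold change of 0.94 (−0.35 on the spike-in scale). The mean over all probes was −0.22 for *Adamts9* and −0.31 for *Adamts5*, and neither was called. *Adamts1* and *Adamts5* are neighbors, with probes 63.4 kb apart on chromosome 16.

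The procollagen N-proteinases, which trim fibrillar collagen precursors, did not move as 1 group. *Adamts3* had a signal of 17.5 and 18.1 in untreated AECs and 14.6 and 15.7 after OGD. It rose by 1.14 ± 0.13 on the log2 scale (adjusted p = 0.00394, limma) relative to the 75th percentile and was at −0.15, not called, on the spike-in scale. Its other probe, which was not well above background after OGD, was at −0.97, and the mean over both probes (0.08) was not called. *Adamts2* was higher by 0.45 (adjusted p = 0.0196, limma) but lower by −0.84 on the spike-in scale, and the call was lost without either untreated array (adjusted p = 0.0833 without the first and 0.135 without the second). *Adamts14* was lower by −0.68 (adjusted p = 0.00479, limma), and without the second untreated array its adjusted p was 0.0529. Its other probe was at 0.35, and the mean over both (−0.16) was not called.

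Among the other ADAMTS proteases, 7 of 9 were tested. *Adamts16* had a signal of 48.2 and 48.2 in untreated AECs and 1.94 and 3.19 after OGD, which was not well above background. The fitted log2 fold change was −2.90 ± 0.34 (adjusted p = 0.00400, limma). Against the lowest signal marked well above background *Adamts16* was 2.80-fold lower after OGD, although with normexp the fitted value was 0.51. With the methods' t-test its adjusted p was 0.0517. *Adamts7*, which cuts cartilage oligomeric matrix protein, was lower at −0.77, with adjusted p = 0.0610 and 0.0801 without the first and the second untreated array. *Adamts10* was lower at −0.72 (adjusted p = 0.00660, limma), or 1.61-fold against the lowest marked signal. This call was lost without the second untreated array, and with normexp the log2 fold change of *Adamts10* was 0.89.

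*Adamts17* was called higher in the fit, at 1.06 ± 0.10 (adjusted p = 0.00233, limma), but had no measured direction at that probe. This brightest probe had 12.7 and 11.4 in untreated AECs and 10.4 and 9.10 after OGD and was not well above background after OGD. It was at −0.22 on the spike-in scale. The other probe had 29.4 and 25.4 in untreated AECs and 1.28 and 1.51 after OGD, also not well above background. Its fitted log2 fold change was −2.92 (adjusted p = 0.00138, limma), and it was 1.59-fold lower against the lowest signal marked well above background. *Adamts6*, *Adamts12* and *Adamts18* were not called, and *Adamts13*, which cuts von Willebrand factor, and *Adamts19* were not detected.

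Probe position and fold change were then set side by side for the 12 members with at least 2 tested probes. The probe nearest the gene start had the higher fitted log2 fold change in 10 of them and the lower one in 2, *Adamts2* and *Adamts10*, each with at least 1 probe not well above background after OGD. In 6 of the 12 (*Adamts5*, *Adamts9*, *Adamts14*, *Mmp11*, *Mmp24* and *Timp2*) the probes at both ends were well above background on every array, and all 6 were among the 10, although the differences of *Mmp11* and *Timp2* (0.01 each) were far below their SE. The differences were 0.01 to 3.25 in the 4 genes whose probes were more than 2000 bp apart. Over the whole array, the probe nearest the gene start was the higher in 3605 of 4809 genes with such probes at any distance and in 79.3% of the 2779 with probes more than 2000 bp apart. In 4 genes (*Adamts3*, *Adamts5*, *Adamts9* and *Adamts17*) both probes were called and in opposite directions. Of these, *Adamts5* and *Adamts9* were well above background on all 4 arrays at both ends, whereas 1 probe of *Adamts3* and both probes of *Adamts17* were not so after OGD. In *Timp2*, by contrast, probes 8818 bp apart gave 0.93 each. This is a description of a few genes chosen by name, and the cause was not tested.

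**Figure D4:**
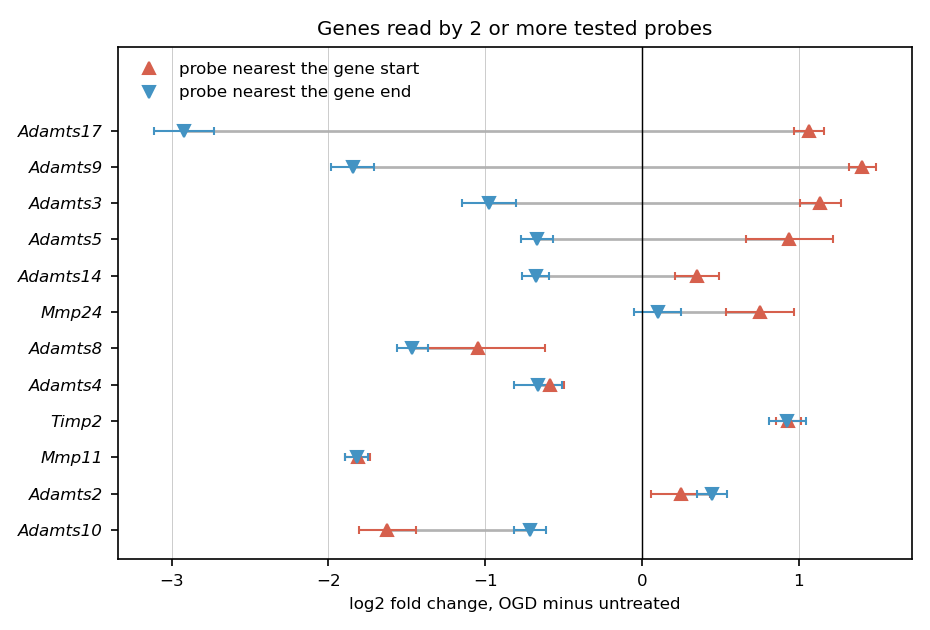
Log2 fold change (OGD minus untreated, relative to the 75th percentile) at the tested probe nearest the gene start (upward triangles) and nearest the gene end (downward triangles) of 12 genes, with bars for the SE from limma (n = 2 arrays per group). Among genes well above background on all arrays at both ends, *Adamts9* differed most (1.41 and −1.85) and *Timp2* and *Mmp11* least, while the values of *Adamts10* and *Adamts17* rest on probes that were not well above background after OGD. On the spike-in scale, which is 1.29 lower throughout, every value above 0 turns below 0 except that of the *Adamts9* probe nearest the gene start (0.12).

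Of the 4 inhibitors, 3 were called higher relative to the 75th percentile, where 37.1% of all genes were so, and all 4 were lower on the spike-in scale, where 83.3% were. *Timp2*, which takes part in activating the *Mmp2* precursor as well as in inhibition, had a signal of 151064 and 128068 in untreated AECs and 107870 and 96633 after OGD. It rose by 0.93 ± 0.12 on the log2 scale (adjusted p = 0.00516, limma) relative to the 75th percentile and was lower by −0.36 on the spike-in scale. *Timp3*, the inhibitor that stays bound to matrix and also blocks ADAMTS aggrecanases, had 70281 and 67052 against 50816 and 38482. It rose by 0.74 ± 0.11 (adjusted p = 0.00743, limma) and was lower by −0.55 on the spike-in scale, and without the second untreated array its adjusted p was 0.0622. With quantile normalization *Timp2* was at −0.05 and *Timp3* at −0.11, and neither was called.

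*Timp1*, an inducible inhibitor of most secreted MMPs, had 16638 and 15845 in untreated AECs and 9618 and 7227 after OGD. It was higher by 0.41 ± 0.11 (adjusted p = 0.0382, limma) and lower by −0.88 on the spike-in scale. This call was lost without the first or second untreated array or the first OGD array (adjusted p = 0.129, 0.191 and 0.0640). It was lost in 8 of 17 other settings in all, with a log2 fold change of 0.005 under quantile normalization (adjusted p = 0.970). *Timp4* had 4538 and 4586 against 2111 and 1913. Its log2 fold change was 0.19 ± 0.08 and did not pass (adjusted p = 0.0952, limma), while it was lower by −1.10 on the spike-in scale. Before scaling, the signal of each inhibitor was lower after OGD.

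Genes that act with these proteases were taken from a list of 38 inhibitors, activators, ADAMTS-like proteins, ADAM sheddases and matrix substrates, of which 35 were tested. With limma 13 were higher, 8 were lower and 14 were not called, beside the same 37.1% and 27.8% of all genes. Their median was 0.20 on the log2 scale. Without the first untreated array 4 were higher and 2 lower, and without the second 4 and 3. On the spike-in scale 2 were higher and 29 lower, beside 3.84% and 83.3% of all genes. *Reck*, a membrane-anchored inhibitor of MMPs, had a signal of 1601 and 1607 in untreated AECs and 140.1 and 140.7 after OGD. It fell by 2.14 ± 0.10 on the log2 scale (adjusted p = 0.000908, limma), or 4.41-fold, and was at −3.43 on the spike-in scale. Both OGD arrays were far below the untreated ones before any scaling.

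*Bsg* and *Adamtsl5* were the partners called higher on both scales. *Bsg* encodes basigin, also known as the extracellular inducer of MMPs. Its signal was 10630 and 10769 in untreated AECs and 14631 and 13924 after OGD, and it rose by 1.79 ± 0.09 on the log2 scale (adjusted p = 0.000904, limma), or 0.50 on the spike-in scale. *Adamtsl5*, an ADAMTS-like protein without protease activity, had 396 and 428 against 742 and 859. It rose by 2.33 ± 0.17 (adjusted p = 0.00156, limma), or 1.04 on the spike-in scale. *Tnc*, the matrix glycoprotein tenascin-C, rose by 1.43 ± 0.16 (adjusted p = 0.00366, limma) and was at 0.14, not called, on the spike-in scale. *A2m*, the broad protease inhibitor α2-macroglobulin, rose by 1.04 ± 0.13 (adjusted p = 0.00455, limma) and was at −0.25, not called, on the spike-in scale. *Furin*, a convertase that activates several MMP and ADAMTS precursors, was lower at −0.62, and *Lrp1*, a receptor that clears MMPs and TIMPs, was not called at 0.20 but was lower by −1.09 on the spike-in scale. The chondroitin sulfate proteoglycans *Acan* (0.30) and *Vcan* (−0.47) were called in opposite directions, whereas *Bcan* (0.24) and *Ncan* (0.19) were not called. On the spike-in scale *Acan* (−0.99), *Bcan* (−1.05), *Ncan* (−1.10) and *Vcan* were all lower.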

How the data were processed

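Gene expression was measured in 2 untreated and 2 OGD-treated AECs, grouped by the labels. The authors' methods describe Cy3 labeling, hybridization to 1-color Agilent arrays and Feature Extraction (version 11.5.1.1 in the submitters' processing notes). The deposited processed signal is an intensity per spot, background-subtracted within each array and not normalized between arrays, and the deposited series table holds the same intensity. Probe positions are on mm9, and whether a probe lies in an exon or a UTR was not analysed here.

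Control spots and outlier spots (119 to 132 per array) were left out, no spot was saturated (0), spots of a probe were averaged as log2, and each array's 75th percentile was subtracted. Probes well above background (at least a fraction of 0.5 of their spots) on both arrays of a group were tested, 28254 in all, with lmFit and eBayes of limma 3.58.1 (R 4.3.3) and Benjamini–Hochberg adjustment over all of them. A gene took the value of its brightest tested probe. For a probe dim on both arrays of a group, a second fold was taken. It set the bright group's mean against the higher of the dim group's signal and the lowest signal marked well above background. This fold is not a strict bound, since some higher signals were not marked, such as 10.4 for *Adamts17* on the first OGD array. Named genes were the 4 *Timp* genes and the members and partners with an adjusted p under 0.05 and an absolute log2 fold change of at least 1, and the other genes that appear were chosen after their values were seen. The members, the lists and the marker genes were chosen with earlier results of these data known. Alternatives were the methods' t-test, a robust prior with an intensity trend, replicate numbers as a block, quantile, median, spike-in and detected-probe 75th-percentile scaling, no filter or a stricter filter, outlier spots kept, the series table, normexp (offset 50), the mean over a gene's probes, each array left out, and fold limits of 2 and 10. In simulated data with 200 of 28163 probes changed, all by more than 2-fold, 154 were recovered. In the measured data 18351 of the 28254 probes were called and many changes were smaller, so this recovery does not carry over to the calls here. Figures used matplotlib 3.10.9 under Python 3.11.15 (numpy 2.4.6, pandas 2.3.3). Arrays have no read depth, and 2 arrays per group limit the precision.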

Additional observations from a re-analysis of the deposited data

How the results depend on the processing

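Over the alternatives, 464 values of single members kept their side of the threshold, 35 were no longer past it, 16 newly passed and 21 turned. A change of sign counted as a turn only where the value passed in the main fit or in the alternative. The 464 therefore include uncalled values that changed sign, such as *Mmp17* (−0.10) and *Mmp24* (−0.05) with the 75th percentile over detected probes. On the spike-in scale, 2 members were higher and 27 lower (median log2 fold change −1.44), as were 2 and 29 partners, and *Timp1* (−0.88), *Timp2* (−0.36), *Timp3* (−0.55), *Timp4* (−1.10), *Mmp2* (−0.48), *Mmp3* (−0.32), *Mmp17* (−1.23), *Mmp23* (−0.71), *Mmp24* (−1.19), *Adamts2* (−0.84), *Adamts3* (−0.15) and *Adamts17* (−0.22) turned. This scale subtracts 1.29 from every log2 fold change, and 83.3% of all genes were lower on it. With normexp, 19 members and 20 partners were higher, the median was 0.58, and *Adamts6* (0.94), *Adamts10* (0.89), *Adamts12* (1.18), *Adamts16* (0.51), *Adamts18* (1.01) and *Mmp28* (1.07) turned, with probes well above background on neither OGD array, or on 1 for *Adamts18*. The median was 0.55 with no filter and 0.14 with probes well above background on all arrays, −0.23 with quantile normalization and −0.30 with the 75th percentile over detected probes. With quantile normalization *Timp2* (−0.049) and *Timp3* (−0.11) turned, and with the mean over probes *Adamts17* (−0.93) did. Partners called higher numbered 8 with the detected-probe percentile and 5 with the methods' t-test, by which 18 of 32 members and 45.5% of all genes passed after adjustment, and 23 members at an unadjusted p under the same limit. That test lost *Adamts2*, *Adamts7*, *Adamts16*, *Mmp2*, *Timp1* and *Timp3* and gained *Timp4*. The causes of the other changes were not tested.

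With each array left out in turn, 7 to 12 members were higher and 6 to 13 lower, the median ranged from −0.29 to −0.046, and 4 to 13 partners were higher and 2 to 8 lower, where the lone array was assumed to vary like the other group. Past a 2-fold limit, 5 members were higher and 6 lower, and 4 partners higher and 1 lower. Past 10-fold in the fit, the members numbered 1 and 1 and the partners 0 and 0, although *Mmp13* was 8.45-fold higher without the first OGD array. *Adamts15* was 8.59-fold lower against the lowest signal marked well above background. With the replicate number as a block, 12 members were higher and 11 lower and 9 and 7 partners. The labels do not say whether arrays of the same number belong together. Deviations of same-numbered arrays from their group means correlated at −0.0574 over 28163 probes, which cannot settle whether they were paired. Signal over background is the limit for dim probes, since 14 members were not tested.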
